A study of Mus musculus with 27 samples.

Results

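H3K4 methylation was examined at 14375 intergenic regions that lay 5 to 50 kb from a gene start in mouse hearts of embryonic stage E11.5. They were taken from the 358833 regions that the authors had merged from peaks of H3K4me1, H3K4me2 and H3K4me3, of which they are 4.01%. A region was chosen by its measured width, from 1000 bp to under 8000 bp, and by its position. It overlapped no gene of the GENCODE vM1 annotation of mouse assembly NCBIM37 (mm9), and its edge lay over 5 kb and up to 50 kb from the nearest annotated transcription start site (TSS). The merged list holds 80022 regions of these widths, so the 14375 members cover the class of intergenic regions at an intermediate distance from genes. They span 29.3 Mb in all, with a median width of 1660 bp.

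Chromatin immunoprecipitation coupled with sequencing (ChIP-Seq) had been performed on hearts of control *Tnnt2::Cre; Kmt2d fl/+; mTmG/+* and mutant *Tnnt2::Cre; Kmt2d fl/fl; mTmG/+* embryos on a C57BL/6 background. The series holds 27 libraries in 9 groups of 3, of which 24 are from hearts, that is input, H3K4me1, H3K4me2 and H3K4me3 from 3 pools of hearts per genotype. The other 3 are KMT2D ChIP-Exo libraries from cardiomyocytes derived from embryonic stem cells and were not used here. Both genotypes carry the Cre driver and the mTmG reporter, and the controls lack 1 copy of *Kmt2d* in the recombined cells, although some labels call them WT. Cre is driven by the *Tnnt2* promoter in the myocardium, so the endocardial, epicardial and blood cells of a whole heart keep the gene. The deposited lists give the chromosome, start and end of each region and no read count, fold change or *P* value. Depth is therefore unknown, there is no value per pool, and neither an SD nor a test over pools could be formed. A region is called lower in what follows where the authors listed it as decreased in mutant hearts.

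In background, KMT2D (MLL4) is a methyltransferase that places H3K4me1 and H3K4me2, mostly at enhancers. Enhancers away from gene starts typically carry H3K4me1 with some H3K4me2, whereas promoters carry H3K4me3, often over CpG islands, short stretches of DNA rich in CG dinucleotides. H3K4me2 marks both kinds of element. Intergenic regions at this distance from genes would ordinarily be read as enhancers, but they can also hold starts of RNAs that an annotation lacks, including those of transfer RNA (tRNA) genes, which RNA polymerase III transcribes from promoters inside the gene known as the A box and the B box.

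By a limit given later, 46.2% of members with lower H3K4me2 were CpG-rich, against 6.75% of those in neither list, which were narrower. The share in members with lower H3K4me1, 4.12% (2.25 to 7.41), was near that of neither list. The following sequences are examples of called members, not of this contrast, since a middle window can miss the CpG-rich part of a region. Each is a stretch of the plus strand of NCBIM37 from the middle of a member. The first 4 come from wide members called for both marks, and capitals mark matches, on either strand, to short motifs of cardiac factors, namely AGATAA for GATA factors, GGAATG for TEAD, TNAAGTG for NKX2-5, GGTGTGA for T-box factors, CAGCTG for E-box factors, TGACAG for MEIS and the MEF2 motif. The fifth, with the same capitals, is from the widest member called for H3K4me1, and the sixth, with capitals at CG, from the widest called for H3K4me2. The names are those of the nearest coding genes.
Fos, chr12:86795446-86795745, plus strand: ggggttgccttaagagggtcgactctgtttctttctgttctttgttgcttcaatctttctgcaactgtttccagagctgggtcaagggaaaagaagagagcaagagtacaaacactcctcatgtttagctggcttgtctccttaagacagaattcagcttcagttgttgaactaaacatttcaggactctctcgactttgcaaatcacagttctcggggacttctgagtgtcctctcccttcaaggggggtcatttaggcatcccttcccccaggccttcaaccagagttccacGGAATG
Atp2a2, chr5:122968466-122968765, plus strand: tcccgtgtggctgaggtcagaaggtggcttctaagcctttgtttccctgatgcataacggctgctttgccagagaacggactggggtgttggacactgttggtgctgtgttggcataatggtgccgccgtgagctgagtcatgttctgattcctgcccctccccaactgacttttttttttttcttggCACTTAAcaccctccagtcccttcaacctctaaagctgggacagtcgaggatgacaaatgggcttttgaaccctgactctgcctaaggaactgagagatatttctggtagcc
1700001O22Rik, chr2:30614616-30614915, plus strand: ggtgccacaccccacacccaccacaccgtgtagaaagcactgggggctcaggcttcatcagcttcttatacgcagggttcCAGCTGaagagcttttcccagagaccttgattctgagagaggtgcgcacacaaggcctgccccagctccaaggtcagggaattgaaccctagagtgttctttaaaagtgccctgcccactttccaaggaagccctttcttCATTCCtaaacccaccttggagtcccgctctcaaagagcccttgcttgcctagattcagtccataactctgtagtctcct
Mylk3, chr8:87920126-87920425, plus strand: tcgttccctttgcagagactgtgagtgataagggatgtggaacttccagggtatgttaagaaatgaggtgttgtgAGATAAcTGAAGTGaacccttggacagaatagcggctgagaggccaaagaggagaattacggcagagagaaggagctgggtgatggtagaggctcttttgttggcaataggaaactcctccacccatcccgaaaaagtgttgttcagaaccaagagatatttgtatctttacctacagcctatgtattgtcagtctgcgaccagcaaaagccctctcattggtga
Prex1, chr2:166258396-166258695, plus strand: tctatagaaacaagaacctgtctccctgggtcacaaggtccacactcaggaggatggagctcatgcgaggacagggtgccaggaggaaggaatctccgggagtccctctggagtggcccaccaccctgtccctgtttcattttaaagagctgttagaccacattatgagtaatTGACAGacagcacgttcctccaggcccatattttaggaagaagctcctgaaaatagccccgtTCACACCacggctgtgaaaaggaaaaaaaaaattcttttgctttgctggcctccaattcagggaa
Cbx8, chr11:118916766-118917065, plus strand: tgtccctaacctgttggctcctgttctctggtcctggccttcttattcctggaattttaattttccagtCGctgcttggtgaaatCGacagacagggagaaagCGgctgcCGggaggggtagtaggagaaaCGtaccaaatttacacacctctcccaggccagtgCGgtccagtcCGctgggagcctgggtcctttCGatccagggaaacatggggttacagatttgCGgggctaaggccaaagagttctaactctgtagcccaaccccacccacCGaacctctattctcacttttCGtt
These 300-base windows held 4, 6, 4, 5, 5 and 11 CG dinucleotides, in the order printed. The window near *Mylk3* holds a GATA match followed after 1 base by an NKX2-5 match, and the window near *Atp2a2* holds an NKX2-5 match. The member near *Fos* reaches 27 CG in another 500 bp of its length and that near *Prex1* 20, so both count as CpG-rich by the limit given later. A match to a short motif is a description of the letters and not a binding site.

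H3K4me1 was called lower at 243 of the 14375 members, or 1.69% (95% Wilson interval, 1.49 to 1.91), against 0.761% of all merged regions and 1.91% of merged regions of the same widths. H3K4me2 was called lower at 329 members, or 2.29% (2.06 to 2.55), against 1.87% of all merged regions and 5.32% of those of the same widths. Thus the H3K4me1 share was near that of regions in the same range of widths, and the H3K4me2 share was well under it. Those regions include the members and were wider, with a median of 1880 bp against 1660 bp, so widths were not matched within the range. Both marks were called at 11 members, or 0.0765% (0.0427 to 0.137), against 0.0575% of all merged regions of these widths. The 11 are 4.53% of the members with lower H3K4me1 and 3.34% of those with lower H3K4me2, and 561 (3.90%) were called for either, against 7.17% of regions of these widths. The members make up 8.90% of all regions with lower H3K4me1 and 4.91% of all with lower H3K4me2. These intervals cover counting error only and treat regions as independent, which neighbouring regions are not. In whole hearts, less of a mark per cell cannot be told apart from fewer cells that carry it. The merged list pools peaks of H3K4me1, H3K4me2 and H3K4me3 without saying which mark a region carried. A member may thus have had little of the mark it is scored for, which applies also to the splits by sequence and gene start below.

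Other classes of the same widths differed in the balance of the marks. Regions in introns over 5 kb from a TSS (23274 regions) were called for H3K4me1 at 2.42% (2.23 to 2.63) and for H3K4me2 at only 0.971% (0.853 to 1.11). Intergenic regions over 50 kb from a TSS (9719 regions) gave 1.09% (0.903 to 1.32) and 1.05% (0.865 to 1.27). Regions within 5 kb of a TSS (26332 regions) gave 1.62% (1.47 to 1.78) and 13.4% (3540 regions). The H3K4me2 share of the members thus lay above that of both other distal classes and under that of regions near a TSS, with intervals that did not overlap.

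Calls rose with width for both marks. Among members, H3K4me1 was lower at 0.830% of those of 1000 to under 1500 bp, at 2.11% of those of 2000 to under 3000 bp and at 4.74% of those of 4000 to under 8000 bp. The H3K4me2 shares of these bands were 0.949%, 2.81% and 7.16%. In the widest band introns gave 6.22% for H3K4me1 and 2.32% for H3K4me2, and regions within 5 kb of a TSS gave 2.27% and 26.8%. In each width band the H3K4me2 share of members lay above both other distal classes and under regions within 5 kb of a TSS. In the narrowest band, members at 0.949% (0.732 to 1.23) and intergenic regions over 50 kb away at 0.685% (0.480 to 0.976) had overlapping intervals.

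**Figure D1:**
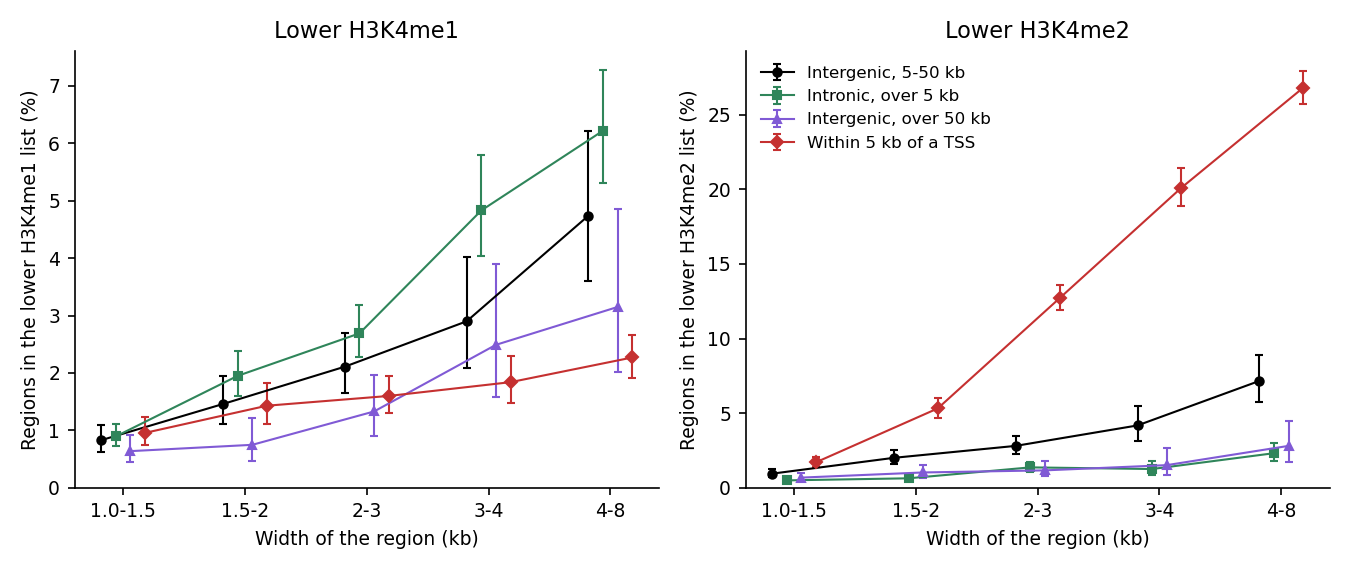
Percent of regions in the list of lower H3K4me1 (left) and lower H3K4me2 (right) against the width of the region in kb, for 4 position classes of merged regions. Points are shares and bars are 95% Wilson intervals. For lower H3K4me2, the members (black) reach 7.16% in the widest band, between the 2 other distal classes and the regions within 5 kb of a TSS at 26.8%.

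The H3K4me2 share was higher nearer the TSS. Members over 5 to 10 kb away were called for H3K4me2 at 2.88% (2.33 to 3.54), those over 10 to 20 kb at 2.70%, those over 20 to 35 kb at 1.77% and those over 35 to 50 kb at 1.80% (1.37 to 2.36). The H3K4me1 shares were 1.79%, 1.61%, 1.58% and 1.87%, which show no order with distance. Just outside the rule, at over 4 to 5 kb, H3K4me2 was called at 5.04% of 694 regions, against 3.67% of 682 just inside, at over 5 to 6 kb. At the far edge it was called at 1.65% of 849 members over 45 to 50 kb away and at 1.14% of 701 regions over 50 to 55 kb away. At the width limits, 0.394% of 1521 members from 1000 to under 1100 bp and 0.783% of 1788 regions from 900 to under 1000 bp were called for H3K4me2, and 13.8% of 65 members from 7000 to under 8000 bp and 6 of 52 regions from 8000 to under 9000 bp. The H3K4me1 shares in the same order were 0.526%, 0.839%, 4.62% and again 6 of 52 regions.

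The side of the nearest gene was compared next. Members upstream of the nearest coding TSS (9112) were called for H3K4me2 at 2.51% (2.21 to 2.86) and those downstream (5263) at 1.90% (1.56 to 2.31), while H3K4me1 was called at 1.65% and 1.77%. Where the starts of both flanking genes faced the region, H3K4me2 was called at 2.55% of members, and where neither did at 1.67% (1.23 to 2.24).

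Calls for the marks differed with the CG content of the sequence, though how much of each mark these regions carried in control hearts is unknown. Each member was scored by the largest number of CG dinucleotides in any 500-bp window within it, moved in steps of 100 bp, and called CpG-rich from 20 CG. There were 1092 CpG-rich members (7.60%), against 18.8% of all merged regions of these widths. H3K4me2 was lower at 152 of them, or 13.9%, and at 177 of 13283 CpG-poor members, or 1.33% (1.15 to 1.54). H3K4me1 was lower at 0.916% (0.498 to 1.68) of CpG-rich and 1.75% (1.54 to 1.99) of CpG-poor members, with overlapping intervals. Its share did not fall steadily with CG, being 0.466% at 0 to 4 CG, 1.63% at 5 to 9, 2.01% at 10 to 14 and 2.27% at 15 to 19, before the 0.916% from 20 CG. The H3K4me2 shares of the same bins were 0.280%, 0.712%, 1.27%, 4.24% and 13.9%. The median score was 19 CG in members with lower H3K4me2, 10 in those with lower H3K4me1 and 10 in those in neither list. Seen from the calls, 46.2% (40.9 to 51.6) of the members with lower H3K4me2 were CpG-rich, 4.12% (2.25 to 7.41) of those with lower H3K4me1 and 6.75% (6.34 to 7.18) of those in neither list. The median widths of these groups were 2360, 2420 and 1640 bp, and a wider region has more windows to search. Contrasts with neither list are thus not matched for width, here and for the gene starts and B boxes below.

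The order of the marks depended on these members. Over all 14375 members H3K4me2 was called more often than H3K4me1, but over the CpG-poor members H3K4me1 was the more frequent call, and this held in each of the 5 width bands, with overlapping intervals. The shares for H3K4me1 and H3K4me2 ran from 0.833% and 0.727% at 1000 to under 1500 bp to 5.13% (3.86 to 6.80) and 3.42% (2.41 to 4.84) at 4000 to under 8000 bp. Of the 11 members called for both marks, 2 were CpG-rich. CpG-rich regions were also called more often for H3K4me2 in introns, at 6.03% of 448, over 50 kb from a TSS, at 6.63% of 347, and within 5 kb of a TSS, at 26.0% of 12536, so this contrast was not particular to the intermediate distance.

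**Figure D2:**
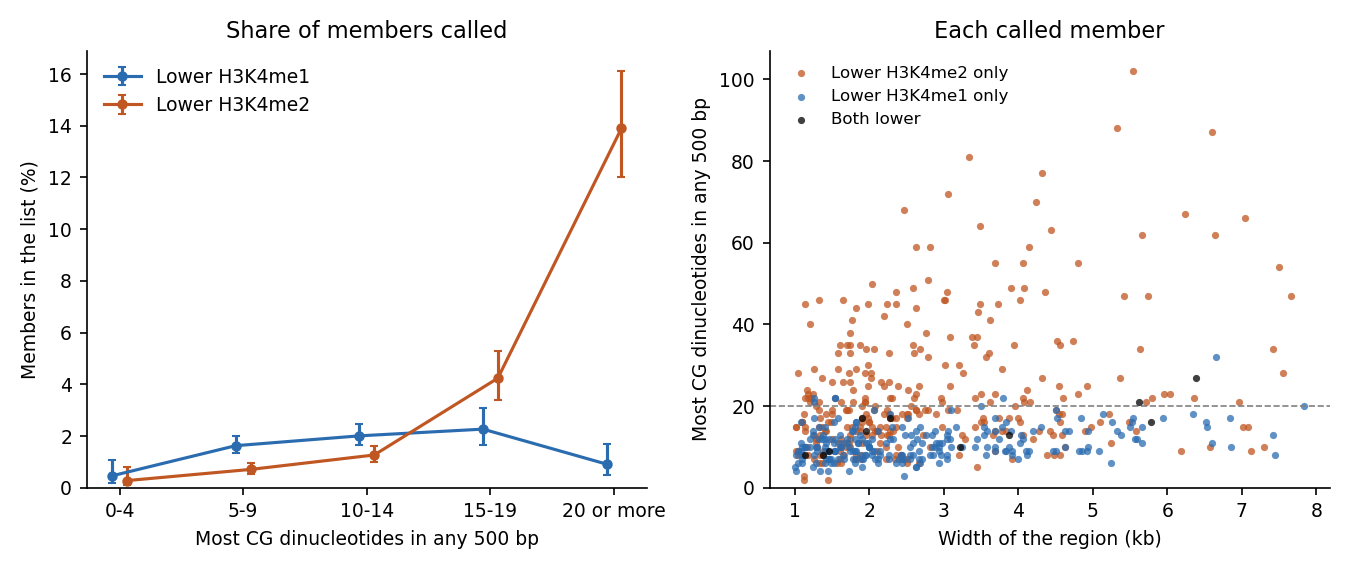
Left, percent of members called lower for each mark against the largest number of CG dinucleotides in any 500 bp, with 95% Wilson intervals. Right, each called member by width in kb and by the same CG number, with the limit of 20 CG dashed. Both shares rise over the first 4 bins, to 4.24% for H3K4me2 and 2.27% for H3K4me1, and in the last bin they are 13.9% and 0.916%. Of the members at or above the dashed line 152 are called for H3K4me2 and 10 for H3K4me1.

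Total GC content behaved differently from CG pairs. In the middle 500 bp it was 50.3% ± 4.25 (SD over 243 regions) in members with lower H3K4me1, 50.1% ± 7.08 (SD over 329 regions) in those with lower H3K4me2 and 46.9% ± 5.73 (SD over 13814 regions) in those in neither list. The H3K4me1 share was 0.274% where GC was under 42% and 3.03% where it was 54% or more, and the H3K4me2 share went from 1.29% to 5.67%. Members with lower H3K4me1 were thus rich in GC without being rich in CG.

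Some regions called intergenic by GENCODE vM1 hold a gene start in a later annotation. RefSeq promoter sequences were placed on NCBIM37 by exact match, and 32526 of 32851 (99.0%) found a position. Of the 14375 members, 709 (4.93%) held a RefSeq start, so the label intergenic does not describe them all. Such a start lay inside 48 of the 329 members with lower H3K4me2, or 14.6% (11.2 to 18.8), inside 12 of the 243 with lower H3K4me1, or 4.94% (2.85 to 8.43), and inside 4.71% (4.36 to 5.07) of those in neither list. Starts of coding genes accounted for 16 of the 48 and starts of long noncoding RNAs for 32. H3K4me2 was lower at 6.77% (5.14 to 8.86) of the 709 members with a RefSeq start.

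Among these 16, chosen after the values were seen, 9 held a RefSeq start of the same gene that GENCODE had put at a distance. They were near *Il6st*, which encodes the gp130 receptor subunit shared by the interleukin 6 cytokines, *Ktn1* (kinectin), *Rnf4* (a ubiquitin ligase that targets SUMO chains), *Papss2* (a sulphate activating enzyme), *Ppp1r13b*, *Mical3*, *Scaper*, *Zfp317* and *Zfp825*. The region at *Il6st* was 6640 bp wide, lay 6.11 kb upstream of the GENCODE start and held up to 62 CG in 500 bp. Others held the start of another gene than the nearest, such as *Chd8*, a chromatin remodeller, *Dpf3*, a subunit of the BAF remodelling complex, *Gatad2b*, a subunit of the NuRD complex, and *Tnrc6b*, of the microRNA silencing machinery. The 250 bases before the RefSeq start of *Il6st* are printed with capitals at CG, as an example of a CpG-rich member with lower H3K4me2.
Il6st, chr13:113254028-113254277, plus strand: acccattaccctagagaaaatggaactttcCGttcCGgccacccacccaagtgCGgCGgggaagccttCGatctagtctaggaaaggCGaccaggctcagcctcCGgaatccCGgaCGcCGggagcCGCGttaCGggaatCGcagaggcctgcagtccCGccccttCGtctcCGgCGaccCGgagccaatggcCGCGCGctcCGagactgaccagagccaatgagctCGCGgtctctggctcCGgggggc
This stretch holds 26 CG in 250 bases and was placed at the start itself, unlike the windows from the middle of members printed earlier.

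A further group of members held matches to the internal promoter boxes of tRNA genes. A B box, searched on both strands as GGTTCGA followed by any 2 bases and CC, was found in 132 members (0.918%), and in 0.884% of all merged regions of these widths. H3K4me2 was lower at 27 of the 132, or 20.5% (14.5 to 28.1), and H3K4me1 at 2, or 1.52% (0.416 to 5.36). Among regions with a B box in the other classes, H3K4me2 was lower at 27.3% (23.2 to 31.9) of 399 within 5 kb of a TSS, at 2 of 114 in introns and at none of 25 over 50 kb from a TSS. Of the members with lower H3K4me2, 8.21% (5.70 to 11.7) held a B box, against 0.746% (0.615 to 0.903) of those in neither list. More than 1 B box was present in 9 members with lower H3K4me2, in 1 of the 13814 in neither list and in none of the 243 with lower H3K4me1.

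The B box alone is also carried by repeats derived from tRNA, so the A box was searched as well, by its degenerate consensus, within the 50 bases that begin 55 bases before the B box. Of the 43 B boxes in members with lower H3K4me2, 26 (60.5%) had an A box, and of the 106 in members in neither list 21 (19.8%). Members with both boxes were called for H3K4me2 at 22 of 43, or 51.2% (36.8 to 65.4), and members with a B box only at 5 of 89, or 5.62% (2.42 to 12.5). The median widths of these groups, 2680 and 2640 bp, were close. The consensus used for the A box begins TAGC or TGGC, so a box with other first bases was counted as a B box only. The boxes were searched after the calls had been seen, so these counts are a description.

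Much of this group lay in a stretch of chromosome 13 between 21 and 24 Mb, among histone genes of the *Hist1* cluster. The limits of the stretch were set after the calls had been seen, and its neighbouring regions are not independent. Its shares are therefore a description. Of 35 members in the stretch, 15 were called for H3K4me2, or 42.9% (28.0 to 59.1), and none for H3K4me1. A B box was present in 24 of the 35 and in 13 of the 15 with lower H3K4me2. The nearest coding genes of those 13 were *Gpx5* (3 regions), *Btn1a1* (3), *Zfp184* (2), *Olfr1368*, *Hist1h2br*, *Prss16*, *Abt1* and *Hist1h4h*, among them a histone H2B and a histone H4 gene. The other 809 members on chromosome 13 were called for H3K4me2 at 2.35% (1.51 to 3.64), and the stretch accounts for the highest H3K4me2 share of any chromosome, 4.03% on chromosome 13. On other chromosomes, 10 of 24 members with both boxes were called for H3K4me2, or 41.7% (24.5 to 61.2), so the pattern was not confined to this stretch. Examples of 4 B boxes in the stretch are printed 5′ to 3′ on the strand of the box, which is in capitals, with 55 bases before and 24 after it.
Olfr1368, chr13:21253270-21253359, plus strand: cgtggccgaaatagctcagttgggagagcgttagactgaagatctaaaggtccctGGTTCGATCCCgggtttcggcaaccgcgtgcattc
Gpx5, chr13:21334434-21334523, plus strand: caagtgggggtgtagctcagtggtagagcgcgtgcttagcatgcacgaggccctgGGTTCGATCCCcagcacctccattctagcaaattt
Zfp184, chr13:22011089-22011178, plus strand: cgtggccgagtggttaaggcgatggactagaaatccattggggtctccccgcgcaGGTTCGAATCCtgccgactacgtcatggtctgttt
Prss16, chr13:22086046-22086135, minus strand: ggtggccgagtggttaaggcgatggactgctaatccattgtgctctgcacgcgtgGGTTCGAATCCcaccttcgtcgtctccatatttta
All 4 have an A box match near their first bases, and the sequences differ from each other, as do all 43 in the members with lower H3K4me2. In the same stretch, the box near *Abt1* and at least 1 of the 3 near *Hist1h4h* had no A box match and are not printed. On chromosome 13, 12 of 19 members with both boxes and 1 of 5 with a B box only were called for H3K4me2.

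**Figure D3:**
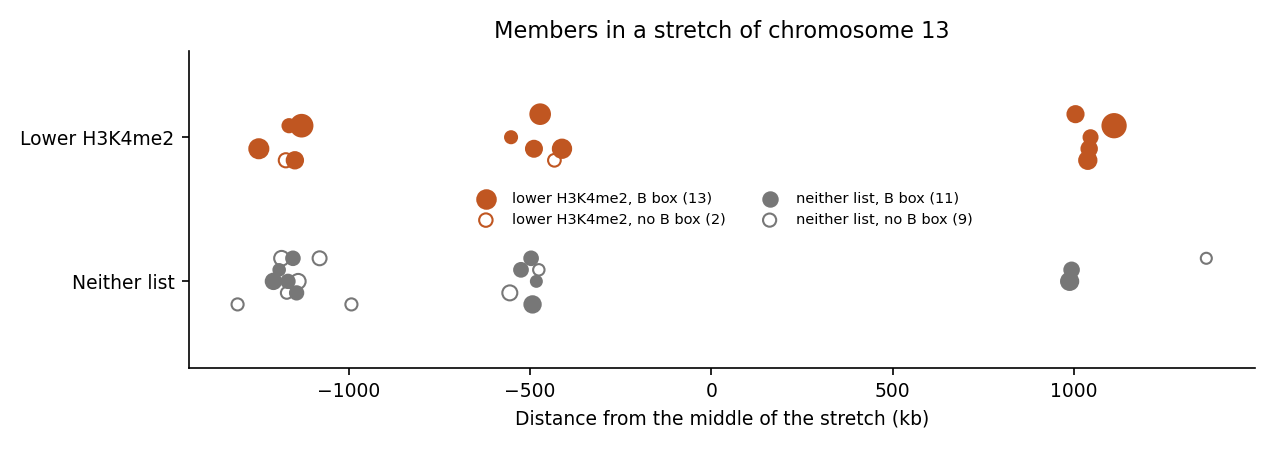
Members in the stretch of chromosome 13, by distance in kb of their middle from the middle of the stretch. Filled circles hold a B box, open circles do not, circle area grows with width, and the small vertical spread within a row separates points. The 15 members with lower H3K4me2 fall in 3 groups and 13 of them are filled, against 11 of the 20 in neither list.

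With the features combined, 54.4% (49.0 to 59.7) of members with lower H3K4me2 were CpG-rich, held a RefSeq start or held a B box. It was so for 9.47% (6.39 to 13.8) of members with lower H3K4me1 and for 1513 of the 13814 in neither list. These groups were not matched for width. Among the 12662 members without any of the 3 features, H3K4me1 was lower at 1.74% (1.52 to 1.98) and H3K4me2 at 1.18% (1.01 to 1.39). Intronic regions without the features gave 2.40% and 0.858%, and intergenic regions over 50 kb away without them gave 1.03% and 0.807%.

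**Figure D4:**
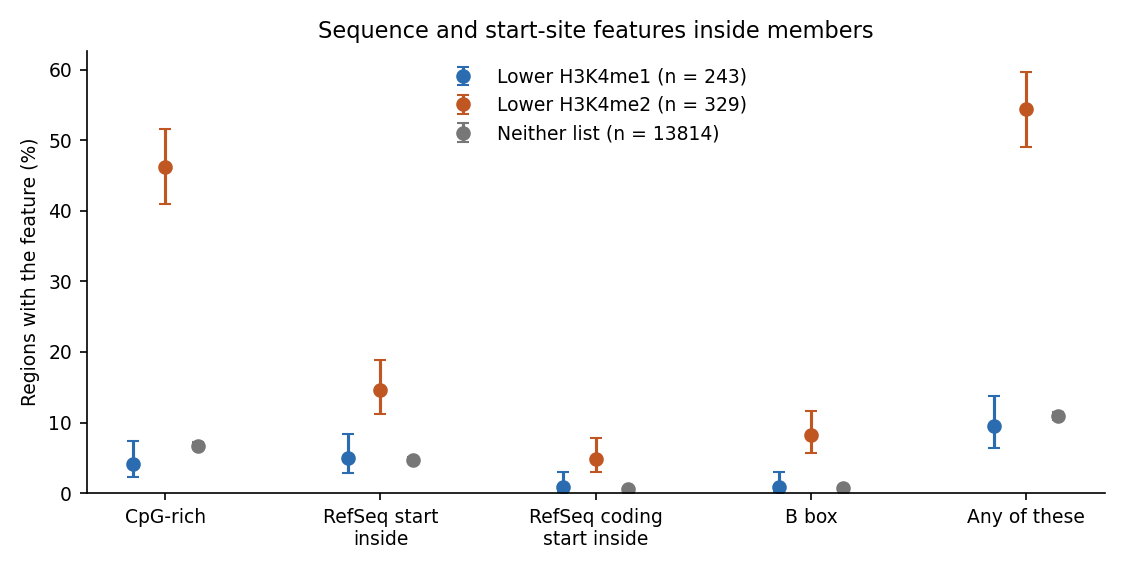
Percent of regions that are CpG-rich, hold a RefSeq start, hold a RefSeq coding start, hold a B box or have any of these features, in members with lower H3K4me1, with lower H3K4me2 and in neither list. Points are shares and bars are 95% Wilson intervals. Members with lower H3K4me2 stand above the others in all 5, with 46.2% CpG-rich against 4.12% and 6.75%. The groups were not matched for width.

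The members called for both marks lay near genes of several kinds. The widest, of 6380 bp, was 16.1 kb upstream of *Fos*, an AP-1 subunit, and held a RefSeq start of a noncoding RNA. A region of 5780 bp lay 13.5 kb upstream of *Atp2a2*, which encodes the sarcoplasmic reticulum calcium pump SERCA2. A region of 3220 bp lay 8.42 kb upstream of *Mylk3*, the cardiac myosin light chain kinase. Others lay 14.2 kb upstream of *H2afy* (the histone variant macroH2A), 5.80 kb upstream of *Nfil3* (a bZIP repressor), 35.6 kb upstream of *Lamb1* (a laminin chain), 9.99 kb upstream of *Slc6a17* (an amino acid transporter), 14028 bp downstream of *Gapvd1* and 35.5 kb downstream of *1700001O22Rik*. The remaining pair lay 96.9 kb upstream of *Arap3* and 19.4 kb downstream of *Arhgef37*, both regulators of small GTPases. Of the 11, 8 lay upstream of the nearest coding gene (72.7%, 43.4 to 90.3), near the 63.4% of all members.

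Several genes had more than 1 called member. The 14375 members had 5748 nearest coding genes, of which 224 were nearest to a member with lower H3K4me1, 303 to one with lower H3K4me2 and 20 to both. The limit of 50 kb applies to the start of any annotated gene. For 21.9% of members the nearest coding start lay beyond it. Only 16 genes had 2 or more members with lower H3K4me1. *Asb2*, a muscle ubiquitin ligase subunit, had 3 of its 6, *Casz1*, a zinc finger factor required in heart development, 3 of 8, and *Slc6a6*, the taurine transporter, 3 of 9. Of the 13 genes with 2, *Gata5*, a cardiac and endocardial transcription factor, and *Ctcfl*, a germline relative of CTCF, came first by the share of their members called and then by symbol, with 2 of 4 each. The 3 regions near *Casz1*, at chr4:148108266-148111025, chr4:148118466-148122985 and chr4:148143506-148147185, all lay upstream within 67.5 kb of its start, and the 3 near *Slc6a6* lay 8.56 to 30.1 kb upstream. For H3K4me2, 22 genes had 2 or more. *Chd2*, a chromatin remodeller, had 4 of 12, all 46.6 to 72.8 kb upstream, of which 3 were CpG-rich with up to 62 CG in 500 bp. *Btn1a1* had 3 of 3 and *Gpx5* 3 of 6, all 6 with a B box, and among the genes with 2 calls *Gm5218* and *Rnf4*, with 2 of 2 each, came first by share and then symbol. None of these 10 genes had 2 or more calls for the other mark. Among all 5748 genes only 16 had so many for H3K4me1 and 22 for H3K4me2. Little overlap would thus be seen in any 10 genes, and no contrast between the marks is drawn from it.

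The widest called members of each list were named next. For H3K4me1 they were regions of 7840 bp nearest to *Prex1* (a Rac exchange factor), 7440 bp nearest to *Actr3* (an Arp2/3 subunit), 7420 bp located 10.1 kb upstream of *Des* (desmin, the muscle intermediate filament), 6860 bp nearest to *Rpl21-ps12* and 6840 bp nearest to *Tpra1*. The starts of *Prex1* and *Rpl21-ps12* lay 136 and 78.3 kb away. The largest CG number of these regions was 8 to 20. For H3K4me2 they were 7660 bp nearest to *Cbx8* (a Polycomb subunit), 7560 bp nearest to *Hfe2* (hemojuvelin, a BMP co-receptor) with 5 B boxes, 7500 bp nearest to *Dcaf4* with the RefSeq start of *Dpf3* inside, 7420 bp nearest to *Extl3* and 7300 bp nearest to *Map2k4*. Their largest CG number was 47, 28, 54, 34 and 10.

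Members were next grouped by the function of the nearest coding gene. Of 76 members nearest to 19 of 25 cardiac transcription factors, H3K4me1 was lower at 8, or 10.5% (5.43 to 19.4), against 1.69% of all members. They were 2 each at *Gata5*, *Irx4* (a ventricular homeobox factor) and *Tbx3* (a T-box factor of the conduction system), and 1 each at *Hand1* and *Mef2d*. H3K4me2 was lower at 2 of the 76, or 2.63% (0.725 to 9.10), which lay 6.17 and 83.5 kb upstream of *Meis1*, a homeobox factor. The *Irx4* regions, of 4000 and 4040 bp, lay 14961 and 27261 bp downstream of its start, and the *Hand1* region of 1800 bp lay 11464 bp downstream. The *Tbx3* regions were 344 and 412 kb upstream, with nearer starts of other than coding genes.

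Of 58 members nearest to ion transport and calcium handling genes, H3K4me1 was lower at 4, or 6.90% (2.71 to 16.4). Among them were the region of *Atp2a2* and 2 that lay 15.2 and 91.9 kb upstream of *Atp1b1*, a subunit of the sodium pump. H3K4me2 was lower at the *Atp2a2* region only, or 1.72% (0.305 to 9.14). Of 31 members nearest to sarcomere and Z-disc genes, H3K4me1 was lower at 2, or 6.45% (1.79 to 20.7). They lay 10.1 kb upstream of *Des* and 86.9 kb upstream of *Tpm1* (tropomyosin). H3K4me2 was lower at 1, near *Myl3* (ventricular light chain), a region with up to 46 CG in 500 bp. The intervals of the transcription factor and ion transport lists for H3K4me1 lay above the share of all members, whereas the sarcomere interval began near it. These calls came from few genes, 5 for the transcription factors and 3 for ion transport, and regions of a gene are not independent. The lists were not matched for width and were chosen with earlier results of these data known. An excess was therefore not tested.

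For signalling genes, H3K4me1 was lower at 3 of 117 members, near *Jag1* (a Notch ligand), *Smad7* and *Tgfbr1*, or 2.56% (0.876 to 7.27), and H3K4me2 at 1, near *Smad7*. The hypoxia and redox list had 1 of 47 for H3K4me1, 7.72 kb upstream of *Epas1*, which encodes HIF2A, and none for H3K4me2. None of the 31 members at cell cycle genes was called for either mark. Of the cell types that keep *Kmt2d*, the endocardial and endothelial list had 1 of 47 for H3K4me1, near *Egfl7*, and 1 for H3K4me2, near *Flt1*, the VEGF receptor. No member nearest to an epicardial and mesenchymal (47 members), erythroid (7) or neural (28) gene was called for either mark. With counts this low, differences between most lists could not be seen.

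**Figure D5:**
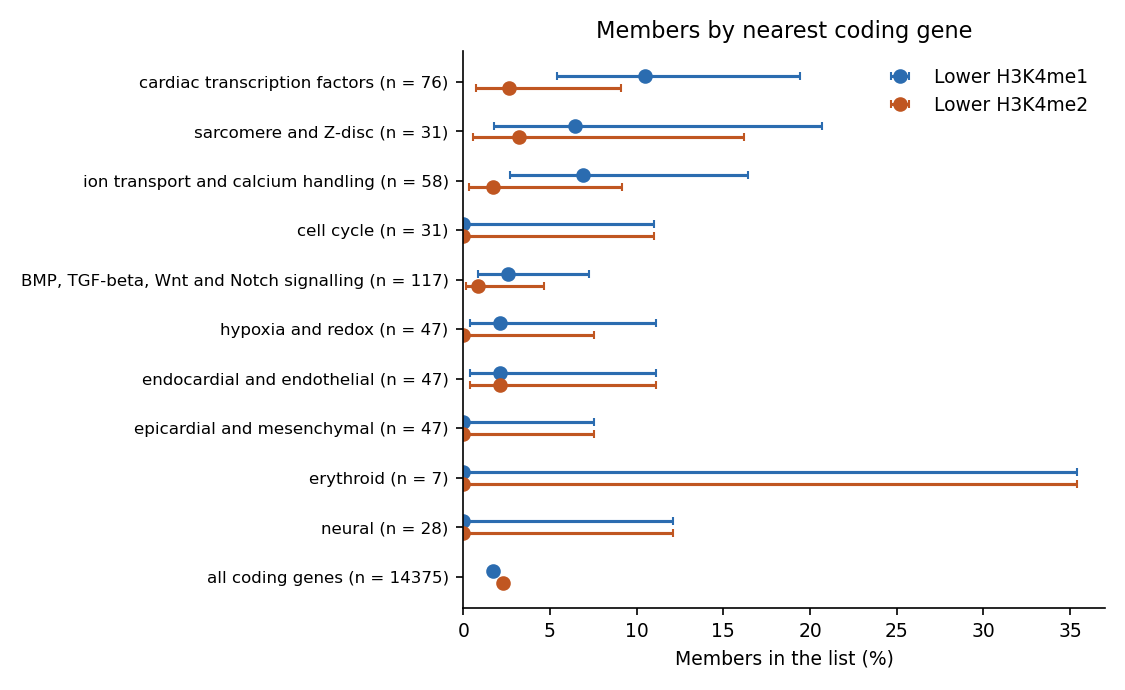
Percent of members in each decreased list by the function of the nearest coding gene, with the number of members in brackets. Points are shares and bars are 95% Wilson intervals. Lower H3K4me1 reaches 10.5% for cardiac transcription factors, and for 4 of the 10 lists neither mark has a called member.

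Called members tended to lie near other called regions of the same mark. Within 10 kb, another region with lower H3K4me1 was found for 16.5% (12.3 to 21.6) of members with lower H3K4me1 and for 4.13% (3.81 to 4.48) of those in neither list. Another with lower H3K4me2 was found for 20.7% (16.6 to 25.4) of members with lower H3K4me2 and 8.55% (8.09 to 9.03) of those in neither list. At the nearest coding gene, a TSS lay in a region with lower H3K4me2 for 32.8% (28.0 to 38.1) of members with lower H3K4me2, for 23.9% (18.9 to 29.6) of those with lower H3K4me1 and for 27.2% (26.4 to 27.9) of those in neither list. A TSS in a region with lower H3K4me1 was less common, at 6.17% (3.78 to 9.93) of members with lower H3K4me1 and 1.53% (1.34 to 1.75) of those in neither list. Lower H3K4me1 at a member thus went with lower H3K4me1 nearby and at the gene start, but for 228 of the 243 no start of the nearest coding gene lay in that list.

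Short motifs were counted in the middle 500 bp on both strands. The SP motif GGGCGG was present in 30.7% (26.0 to 35.9) of members with lower H3K4me2, in 34 of the 243 (interval 10.2 to 18.9%) with lower H3K4me1, in 10.8% of those in neither list and in 14.9% of all merged regions of these widths. The ETS motif CCGGAAG was present in 7.60%, 1.23% (0.421 to 3.57), 3.25% and 3.73%. Both motifs hold CG. Among CpG-poor members the SP shares for lower H3K4me2, lower H3K4me1 and neither were 16.9%, 14.2% and 8.81%, and the ETS shares 6.21%, 1.29% and 2.95%. The E box CAGCTG was present in 35.4% (29.6 to 41.6) of members with lower H3K4me1, 21.3% (17.2 to 26.0) of those with lower H3K4me2, 28.3% of those in neither list and 27.3% of all. Among CpG-poor members its shares for lower H3K4me1, lower H3K4me2 and neither were 35.2% (29.3 to 41.5), 26.6% (20.6 to 33.5) and 28.3%. The T-box motif GGTGTGA was in 11.9% (8.44 to 16.6), 5.78%, 7.69% and 7.19%.

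The remaining motifs were counted in the same way. The GATA motif was in 23.9% (18.9 to 29.6) of members with lower H3K4me1, 79 of the 329 with lower H3K4me2, 31.2% of those in neither list and 29.0% of all, and the NKX2-5 motif in 20.2%, 24.9%, 26.2% and 25.8%. The TEAD motif was in 28.0%, 21.9%, 28.8% and 27.0%, and the MEIS motif in 39.5%, 28.6%, 35.8% and 35.1%. The AP-1 motif TGANTCA was in 14.4%, 11.9%, 16.7% and 14.9%. The MYC motif CACGTG was in 8.64%, 33 of 329, 7.34% and 7.70%, and the HIF motif TACGTG in 6.17%, 4.86%, 5.20% and 5.53%. MEF2 was in 2.47%, 1.22%, 1.89% and 1.77%, and CArG, the site of SRF, in 2.06%, 2.74%, 2.87% and 2.64%. The GATA and NKX2-5 motifs are rich in A and T, and the called members had a higher mean GC content than the others. Whether GC content accounts for these motif shares was not tested. Mean GC was 50.3% over all members with lower H3K4me1 and 50.1% over all with lower H3K4me2. It was not formed for the CpG-poor members among them. Among CpG-poor members the NKX2-5 shares for lower H3K4me1, lower H3K4me2 and neither were 18.5%, 29.9% (23.7 to 37.1) and 26.6%. The GATA motif was in 56 of 233, 29.4% and 32.1% of the same groups.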

How the data were processed

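ChIP-Seq libraries were grouped by their titles. Per the submitters' processing notes, reads were handled with CASAVA 1.8.2, FastQC, Bowtie2, Bowtie and SAMtools on mm9. The authors deposited 3 region lists, of merged peaks and of regions with decreased H3K4me1 or H3K4me2 (false discovery rate set by them), as coordinates only. The peak caller and the test are not given in the sources used here. Regions were matched between lists by identical coordinates, and every called region was found in the merged list. Genes and TSS came from GENCODE vM1, with distances from the nearest edge. Sequences came from NCBIM37, and RefSeq starts placed at exactly 1 position were used. Shares have 95% Wilson intervals, and no test over regions was run. Python 3.11.15 with pandas 2.3.3 and SciPy 1.17.1 was used, and region classing was tested on simulated data.

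The members and gene lists were chosen with earlier results of these data known. Named genes were the nearest coding genes of the members in both lists, of the 5 widest members of each list and of listed genes with a called member, and the 5 genes with most called members for each mark, with ties ordered by the share of a gene's members called and then by symbol. Features other than width, distance, GC, orientation, motifs and gene lists were added after seeing the data. KMT2D ChIP-Exo was not analysed here, and no sequence of chromosome 18 was drawn. Some results are not reported here.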

Additional observations from a re-analysis of the deposited data

How the results depend on the processing

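No paired analysis was possible because the lists hold no value per replicate, and for the same reason no replicate could be left out. A filter on repeats was not run, since the genome used is not masked. With width from 500 bp, H3K4me1 was lower at 1.05% and H3K4me2 at 1.35%, and from 2000 bp at 2.81% and 3.98%, with 6 regions in both lists. As a share of covered base pairs they were 2.33% and 3.23%. With protein-coding genes only, the H3K4me2 share was 2.85%, and with TSS up to 100 kb it was 2.03%. With TSS from 10 kb, 7 regions were in both lists. Both flanking genes gave 421 genes for H3K4me1 and 583 for H3K4me2. Counting a TSS within 5 kb of a region with lower H3K4me1 gave 12.3% instead of 6.17% for members with lower H3K4me1. For members in neither list it gave 4.16% instead of 1.53%.

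Other alternatives were chosen after seeing the data. The H3K4me2 share was 1.33% without CpG-rich members, 2.04% without members with a RefSeq start within 5 kb and 1.18% without the 3 features together, while the H3K4me1 share stayed between 1.63% and 1.75%, so the first and last put H3K4me1 above H3K4me2. With limits of 15 and 25 CG, 68.4% and 32.8% of members with lower H3K4me2 were CpG-rich, and 20.2% and 0.823% of those with lower H3K4me1. Of all 14375 members, 1720 held 15 to 19 CG and 1092 held 20 or more. With the limit of 20 CG and width from 2000 bp, 52.2% of members with lower H3K4me2 and 4.11% of those with lower H3K4me1 were CpG-rich. No such share was formed for members in neither list. Of 57 alternative values of these results, 36 stayed within the interval of the reported share or within 1.5 times the reported count. Some of the 36 had little or no room to move. Matching by overlap repeats matching by coordinates here, and the chromosome 13 stretch holds no call for H3K4me1. Motif shares in 300-bp windows were lower in most cases, as fewer bases were searched. Depth is unknown, so absence from a list does not show that a mark kept its level, or that the region carried it.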
